A study of Mus musculus with 6 samples.

Results

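The genes described here are 10 that encode NF-κB subunits, the IκB proteins that hold NF-κB back or modify it, and a feedback enzyme: Nfkb1, Nfkb2, Rel, Rela, Relb, Nfkbia, Nfkbie, Nfkbiz, Tnfaip3 and Bcl3. They were chosen by name and not by their values. All their probes detected at a p under 0.05 on at least 3 of 6 arrays were taken, and the brightest probe stood for the gene. Of the 10 genes, 9 had a probe named in the array's annotation and 8 were measured, by 10 of their 11 probes, among 9348 genes measured in all. Nfkb1 had no probe in that annotation. The single probe of Rel was detected on no array, with detection p-values of 0.06944 to 0.69551.

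NF-κB is a family of dimeric transcription factors that wait in the cytoplasm, bound by IκB proteins, until an inflammatory signal such as tumor necrosis factor or interleukin-1 reaches the cell. IκB is then phosphorylated and destroyed, the dimers enter the nucleus, and they bind κB motifs near inflammatory and survival genes. Among the genes they switch on are their own inhibitors and several of their own subunits, so that the RNA of these genes is often read as a record of recent NF-κB activity. In mammary carcinoma cells the pathway is known for cytokine production, survival and invasion.

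The groups were 3 cultures of 4T1 cells, a mammary carcinoma line from BALB/c mice, stably transfected with a short hairpin RNA against Mmp3 (4T1-MMP3lo), and 3 cultures of 4T1 transfected with a scrambled control sequence (4T1-SC). Every culture was grown in medium with serum, and none is said to have been stimulated. Each sample label carries 1 of 3 dates, and each date is shared by 1 culture of each group; what happened on that date is not stated. All 4T1-MMP3lo labels carry the suffix Cl1, which is not explained. It might name the hairpin, since the study calls the Mmp3 construct it chose in CMS4 cells clone #1. It might also stand for a single clone of cells. So n is a number of cultures, and not one of separately made cell lines. The comparison asks what differs in RNA between these cell populations.

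Mmp3, the targeted gene, encodes stromelysin-1, a secreted protease of the extracellular matrix. Its log2 intensity was 10.64, 13.40 and 13.33 in the arrays labelled 4T1-MMP3lo, replicates 1 to 3, against 11.52, 12.98 and 13.04 in 4T1-SC, a difference of −0.06 (SE 0.74, adjusted p = 0.989 from limma). No decrease beyond the spread between arrays was found (95% interval −1.75 to 1.64, and −0.71 to 0.60 with the date as a block), its other 2 probes differed by −0.04 and 0.09, and the groups are therefore called by what the labels say. Of 10 epithelial markers, 9 were detected on all 6 arrays and Epcam on none. Of 11 leukocyte markers with a probe, 8 were detected on no array, Ptprc among them, and of 10 fibroblast markers 5 were detected on none. By their best probe, Cd3e and Csf1r were each detected on 4 of 6 arrays and Coro1a on 1. The summed intensity of the leukocyte list was 1167.7 to 1220.7 in the arrays labelled 4T1-MMP3lo and 1048.3 to 1219.1 in 4T1-SC, while that of the fibroblast list was 1284.8 to 1635.3 in the arrays labelled 4T1-MMP3lo and 1017.3 to 1438 in 4T1-SC, with Pdgfra the only fibroblast marker detected on all 6 arrays. Between 36.93% and 38.75% of probes were detected on an array. 1 array stood apart within its group: the median deviation of 16 interferon-stimulated genes from their own means lay between −0.43 and −0.32 in the arrays labelled 4T1-MMP3lo, and was −1.14 in 4T1-SC replicate 1 and 1.16 and 1.08 in 4T1-SC replicates 2 and 3. The part of that array in the results below was not tested, and the counts of each list between the groups are given without it too.

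The sequences that tie these genes to one another are the κB motifs at their starts. RefSeq promoter windows (build GRCm38.p6, from 250 bases before to 50 bases after a transcription start) were at hand for 7 of the 10 genes, and 6 of the 7 held at least 1 match to the 10-base κB consensus on either strand. Rela, whose RNA is made in most cells at a steady level, had none, and Nfkb1, Relb and Nfkbiz were not in the table. A match stood in 8 of 10 windows of these genes and in 8.46% of all 32851 windows of that length. The windows are not all separate, since a pair of Nfkb2 windows overlap and share 1 match. The stretches below are shown as matches to this consensus. Each is 30 bases on the gene's strand, 5′ to 3′, with the match in capitals, and overlapping matches on the 2 strands are written as 1 run of capitals. A match is a likeness of letters, and binding was not measured.
Nfkb2, position −39 (chr19:46304689-46304718, plus strand): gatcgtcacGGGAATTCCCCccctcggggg
Rel, position −92 (chr11:23771041-23771070, minus strand): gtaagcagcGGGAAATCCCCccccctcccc
Nfkbia, position −29 (chr12:55492657-55492686, minus strand): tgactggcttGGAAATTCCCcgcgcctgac
Nfkbie, position −106 (chr17:45555584-45555613, plus strand): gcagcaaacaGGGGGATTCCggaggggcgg
Tnfaip3, position −12 (chr10:19015403-19015432, minus strand): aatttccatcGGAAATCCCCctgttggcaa
Bcl3, position 3 (chr7:19822734-19822763, minus strand): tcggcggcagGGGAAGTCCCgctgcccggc
Positions count to the first capital from the transcription start, and negative ones lie before it. The 6 stretches differ in their middle letters, while their runs of Gs and Cs were fixed by the search. Its consensus asked for 3 Gs, then A or G, 2 free bases, 2 of C or T, and 2 Cs. Nfkb2 and Tnfaip3 had further matches, Nfkb2 in each of its 3 windows and Tnfaip3 a second one at position −125.

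Nfkbia has the best known inducible promoter of the family, and its level moved most between dates among the inhibitors of the classical kind. Its upstream bases (chr12:55492648-55492897, minus strand) are therefore given whole, with the match in capitals close to the 3′ end.
Nfkbia upstream: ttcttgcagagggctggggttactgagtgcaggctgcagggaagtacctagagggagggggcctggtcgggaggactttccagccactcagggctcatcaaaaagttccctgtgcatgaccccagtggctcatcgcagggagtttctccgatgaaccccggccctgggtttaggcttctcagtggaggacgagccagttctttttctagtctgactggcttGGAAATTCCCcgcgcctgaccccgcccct

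The values that follow are log2 intensities after background correction and quantile normalization, and a difference of 1 is a 2-fold difference. Levels of different genes are not set against each other, since probes differ in brightness. No member passed the test between the groups in limma, at a Benjamini-Hochberg adjusted p under 0.05 over all 9348 genes, which 1.09% of all genes did. At an unadjusted p under 0.05, 1 of the 8 members passed, Bcl3, against 12.2% of all genes. The groups did not overlap for Bcl3 and Rela, both higher in the arrays labelled 4T1-MMP3lo, against 9.62% of all genes that were higher without overlap. The median difference of the 8 was 0.18, with 6 above 0, against a median of 0.02 over all genes. By the methods' t-test 1 member passed an unadjusted p under 0.05 (11.3% of all genes) and none passed after Benjamini-Hochberg adjustment, nor did any other gene. At the thresholds of the study's array legend, more than 2-fold with an unadjusted p under 0.01, Bcl3 passed on limma's fit, as 2.71% of all genes did, and by the methods' t-test, as 1.28% did. The study's own list of genes at these thresholds does not hold Bcl3. The values used here were corrected for background, unlike the log2 values that the authors deposited.

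**Figure D1:**
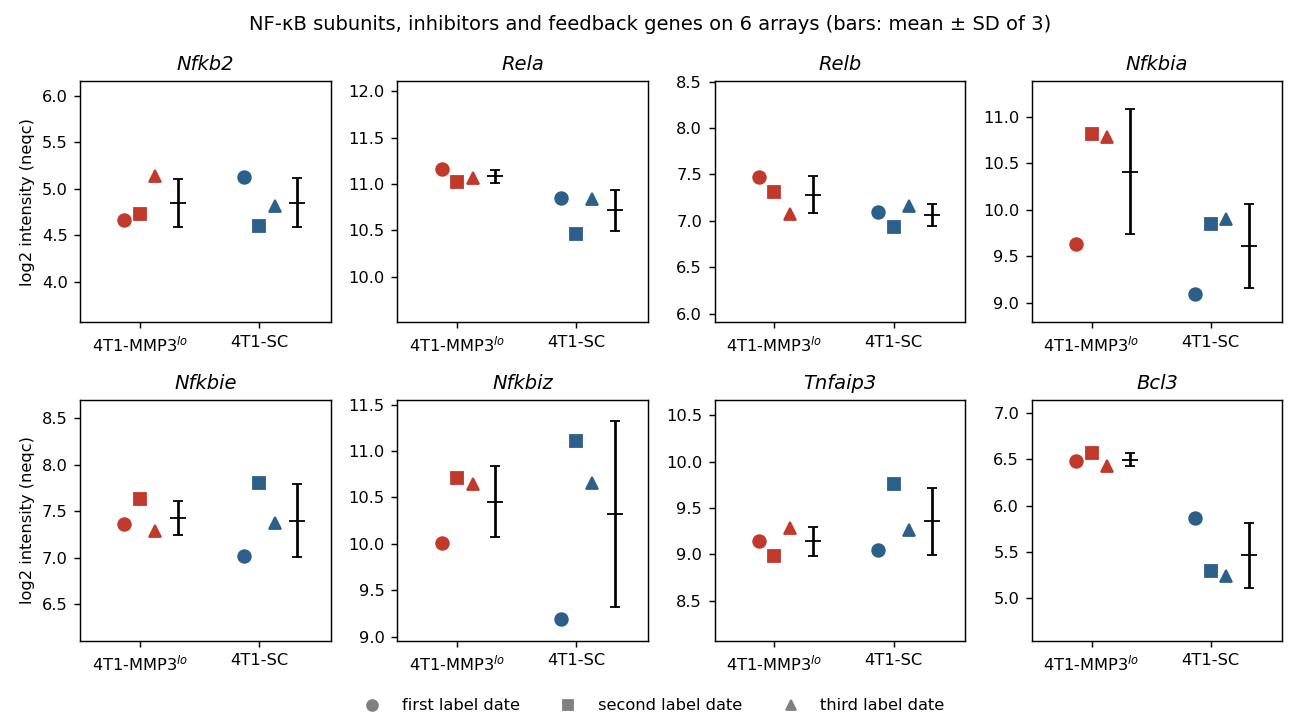
Log2 intensity of the 8 measured genes, 1 panel each, with the 3 arrays labelled 4T1-MMP3lo left and the 3 of 4T1-SC right; marker shape gives the label date and the bar the mean ± SD of 3. Bcl3 lay between 6.43 and 6.57 in the arrays labelled 4T1-MMP3lo and between 5.24 and 5.87 in 4T1-SC, while Nfkbiz spread from 9.19 to 11.11 within 4T1-SC.

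Of the subunits, Rela encodes p65, the subunit with a transactivation domain that carries most of the classical signal. It measured 11.16, 11.02 and 11.07 in the arrays labelled 4T1-MMP3lo and 10.85, 10.46 and 10.84 in 4T1-SC. Every array labelled 4T1-MMP3lo lay above every 4T1-SC array. The difference of the means was 0.37 (SE 0.19, 95% interval −0.06 to 0.79, adjusted p = 0.493, limma), and it was positive in all 3 pairs of the same date. Relb, which encodes the subunit that pairs with p52 in the alternative pathway, measured 7.47, 7.31 and 7.07 in the arrays labelled 4T1-MMP3lo and 7.10, 6.93 and 7.16 in 4T1-SC. The groups overlapped, and the difference was 0.22 (SE 0.19, 95% interval −0.21 to 0.65, adjusted p = 0.721, limma).

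Nfkb2 encodes p100, which is at once an IκB-like inhibitor and the precursor of p52. Its probe stood near the detection limit: it was detected on 1 of 3 arrays labelled 4T1-MMP3lo and on 2 of 3 of 4T1-SC. The values were 4.66, 4.73 and 5.14 in the arrays labelled 4T1-MMP3lo and 5.13, 4.60 and 4.82 in 4T1-SC. Both groups covered nearly the same range, and the difference was −0.0065 (SE 0.22, 95% interval −0.51 to 0.50, adjusted p = 0.996, limma). Values so close to background understate any difference in RNA. Nothing was measured for Rel, which encodes the lymphoid subunit c-Rel, beyond its intensities of 104.5 to 112.9 in the arrays labelled 4T1-MMP3lo and 93.7 to 110.4 in 4T1-SC, none of them above the detection threshold.

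Nfkbia encodes IκBα, the inhibitor that NF-κB resupplies first after a signal and that ends its stay in the nucleus. It measured 9.63, 10.82 and 10.78 in the arrays labelled 4T1-MMP3lo and 9.09, 9.85 and 9.90 in 4T1-SC. The first replicate of each group was its lowest, and the first array labelled 4T1-MMP3lo lay below 4T1-SC replicates 2 and 3, so the groups overlapped, although within each date the array labelled 4T1-MMP3lo was the higher one, by 0.54, 0.97 and 0.88. The mean difference was 0.79, or 1.73-fold (SE 0.36, 95% interval −0.04 to 1.63, adjusted p = 0.436, limma). With the date as a replicate block the same difference had an SE of 0.18, a 95% interval of 0.36 to 1.22 and an unadjusted p of 0.00338, and still missed the threshold (adjusted p = 0.0896, limma). Leaving out 1 array moved the difference to between 0.53 and 1.18, the extremes coming without 4T1-SC replicate 1 and without the array labelled 4T1-MMP3lo replicate 1. On the 4 arrays of the later dates alone, a choice made after seeing the data, it was 0.92 and passed (adjusted p = 0.0153, limma). Far more of all genes passed in that setting than in the main fit, as counted further below.

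Nfkbia had a second, dimmer probe, detected on 5 of 6 arrays. It read 5.46, 5.53 and 5.64 in the arrays labelled 4T1-MMP3lo and 4.75, 5.80 and 5.16 in 4T1-SC, a difference of 0.31 (SE 0.27, adjusted p = 0.759 over the 16969 probes, limma). Both probes had their lowest value on 4T1-SC replicate 1, but they did not order the other arrays alike: the highest was the array labelled 4T1-MMP3lo replicate 2 on the bright probe and 4T1-SC replicate 2 on the dim one. With the mean of both probes as the gene's value, the difference was 0.55.

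Nfkbie encodes IκBε, a slower inhibitor of the same kind. It measured 7.36, 7.63 and 7.29 in the arrays labelled 4T1-MMP3lo and 7.02, 7.80 and 7.37 in 4T1-SC, and the 4T1-SC arrays enclosed the others. The difference was 0.03 (SE 0.24, 95% interval −0.52 to 0.57, adjusted p = 0.983, limma). Its second probe, detected on all 6 arrays, differed by 0.11 (SE 0.19).

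Bcl3 and Nfkbiz encode nuclear IκB proteins, which do not hold NF-κB in the cytoplasm but join p50 or p52 on DNA and can raise the transcription of chosen targets. Bcl3 had the largest difference of the 8 genes. It measured 6.48, 6.57 and 6.43 in the arrays labelled 4T1-MMP3lo and 5.87, 5.29 and 5.24 in 4T1-SC, and was detected on all 6 arrays. The arrays labelled 4T1-MMP3lo were close together (SD 0.07, n = 3) and above every 4T1-SC array, of which replicate 1 was the nearest. The difference was 1.03, or 2.04-fold (SE 0.22, 95% interval 0.54 to 1.52, unadjusted p = 0.00127, adjusted p = 0.0782, limma), and 0.61, 1.29 and 1.19 within the 3 dates.

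Whether Bcl3 passed depended on the arrays and on the scaling. Without 4T1-SC replicate 1 the difference was 1.23 (adjusted p = 0.0034, limma), in a fit in which 10.7% of all genes passed. Without any other single array the difference was 0.92 to 1.06 and did not pass. On the intensities with no background correction it was 0.42 (adjusted p = 0.165, limma). Over all the alternatives the adjusted p of Bcl3 ran from 4.9e-05 to 0.356, with the difference always above 0. The number of all genes that passed also differed widely between these alternatives, and is given for most of them further below.

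Nfkbiz encodes IκBζ, a nuclear IκB that responds strongly to interleukin-1 and Toll-like receptor signals. It measured 10.01, 10.71 and 10.64 in the arrays labelled 4T1-MMP3lo and 9.19, 11.11 and 10.65 in 4T1-SC. The 4T1-SC arrays held both its lowest value, in replicate 1, and its highest, in replicate 2. The difference of the means was 0.14 (SE 0.46, 95% interval −0.92 to 1.19, adjusted p = 0.954, limma), an interval wide enough to hold a 2-fold difference upwards, and without 4T1-SC replicate 1 it was −0.43.

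Tnfaip3 encodes A20, an enzyme that edits ubiquitin chains on upstream adaptors and so damps the signal before it reaches IκB. It measured 9.15, 8.98 and 9.29 in the arrays labelled 4T1-MMP3lo and 9.05, 9.76 and 9.26 in 4T1-SC. Only 4T1-SC replicate 2 stood away from the rest. The difference was −0.22 (SE 0.23, 95% interval −0.74 to 0.30, adjusted p = 0.776, limma).

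**Figure D2:**
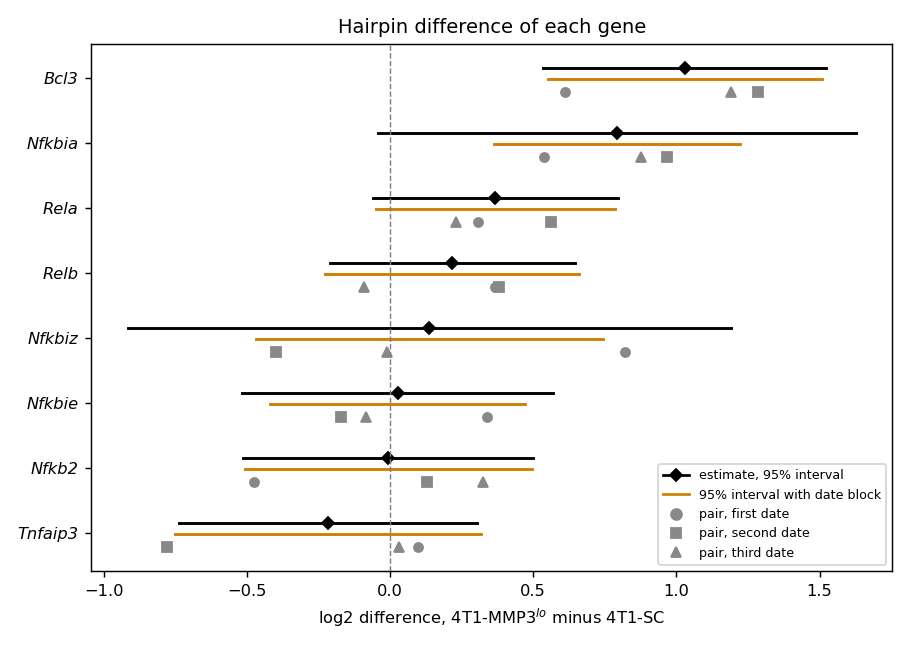
Log2 difference of 4T1-MMP3lo minus 4T1-SC for each of the 8 genes: black diamonds and lines give the estimate with its 95% interval, orange lines the interval with the date as a block, and grey markers the difference within each date. The interval of Bcl3 (0.54 to 1.52) lay above 0 with and without the block, and that of Nfkbia (0.36 to 1.22) with the block.

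With the date as a block, no member passed at an adjusted p under 0.05 in limma, against 2.08% of all genes, and 2 of 8, Bcl3 and Nfkbia, passed at an unadjusted p under 0.05, against 16.3% of all genes. Bcl3 then had an adjusted p of 0.0575. The 8 genes differed in how far they moved over the 6 arrays whatever the group. The SD over arrays was 0.683 for Nfkbiz, 0.673 for Nfkbia and 0.607 for Bcl3, each larger than the SD of 91.3% to 93.9% of the genes measured, whose median was 0.3. The other 5 had SDs of 0.189 to 0.277, all below that median. The 3 genes that moved most did so along different arrays: Nfkbia and Nfkbiz were both lowest on 4T1-SC replicate 1, and Bcl3 followed the group labels.

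The date shared by 1 culture of each group was the other line along which these genes moved. Over the 3 dates no member passed limma's F-test with the group in the model, against 0.171% of all genes, and 2 passed at an unadjusted p under 0.05, against 13.4% of all genes. These were Nfkbia and Nfkbiz. None passed the contrast of the first date with the later ones at an adjusted p under 0.05, which 0.481% of all genes did. Both were higher on all 4 arrays of the later dates than on both arrays of the first, against 14.9% of all genes that were higher without overlap.

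Nfkbia was 0.98 higher on the later dates than on the first (SE 0.19, unadjusted p = 0.0015), with an adjusted p of 0.088 for this contrast and of 0.256 for the F-test in limma. It was 1.17 higher in the arrays labelled 4T1-MMP3lo and 0.78 higher in 4T1-SC, so that both groups moved the same way by about the size of the difference between the groups. Its second probe was 0.43 higher on the later dates (SE 0.25).

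Nfkbiz was 1.18 higher on the later dates (SE 0.27), with an adjusted p of 0.0996 for the contrast and of 0.274 for the F-test in limma. The size came mostly from 1 group, at 0.66 in the arrays labelled 4T1-MMP3lo and 1.69 in 4T1-SC. Without the array labelled 4T1-MMP3lo replicate 1 the date effect was 1.69 and passed the F-test (adjusted p = 0.0435, limma); without 4T1-SC replicate 1 it was 0.66 and did not.

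For the other 6 genes the later dates differed from the first by −0.29 (Bcl3) to 0.34 (Nfkbie), with SEs of 0.19 to 0.24. Tnfaip3, a gene of the same feedback loop as Nfkbia, differed by 0.23 (SE 0.24), at −0.0093 in the arrays labelled 4T1-MMP3lo and 0.46 in 4T1-SC. The second and the third date did not differ at an adjusted p under 0.05 for any gene measured, and for Nfkbia they differed by 0.00052 (SE 0.22). The dates and whatever came with them, such as the state of the cultures, cannot be told apart.

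**Figure D3:**
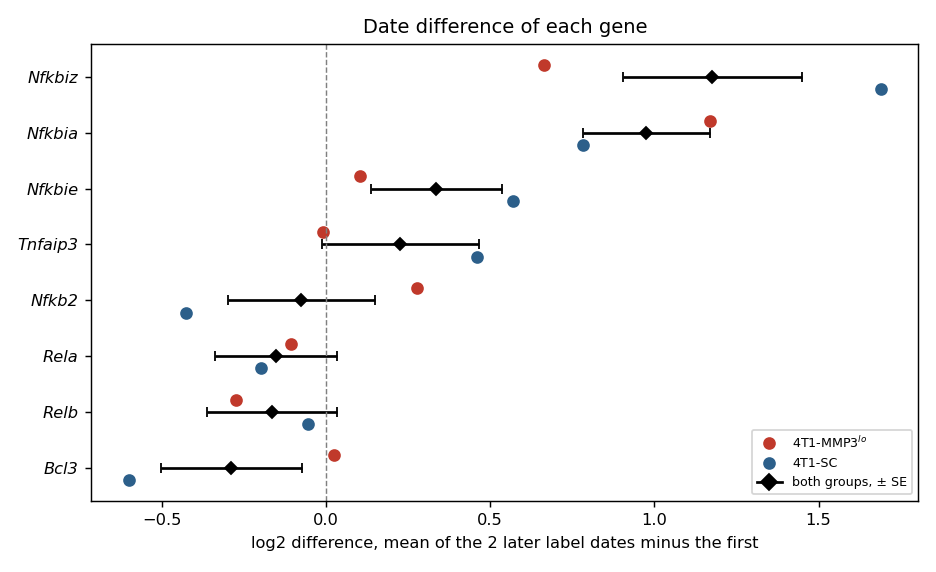
Log2 difference between the mean of the 2 later label dates and the first, for each of the 8 genes: black diamonds give the estimate over both groups ± SE, red points the arrays labelled 4T1-MMP3lo and blue points 4T1-SC. Nfkbiz (1.18) and Nfkbia (0.98) lay far from 0, and the points of the 2 groups lay on opposite sides of 0 for Nfkb2, Bcl3 (0.02 in the arrays labelled 4T1-MMP3lo) and Tnfaip3 (−0.0093).

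Whether the difference between the groups was the same at the first date as later was tested by an interaction term. No member passed at an adjusted p under 0.05 in limma, against 0.877% of all genes, and 1 of 8, Nfkbiz, passed at an unadjusted p under 0.05, against 16.3%. For Nfkbiz the difference, 4T1-MMP3lo minus 4T1-SC by label, was −0.20 on the later dates and 0.82 on the first date, a change of −1.03 (SE 0.35, adjusted p = 0.241, limma). Without 4T1-SC replicate 3 the change was −1.25 and passed (adjusted p = 0.0299, limma). Bcl3 gave 1.24 on the later dates and 0.61 on the first date, a change of 0.63 (SE 0.28, adjusted p = 0.339, limma). The first date holds 1 array of each group, 1 of them 4T1-SC replicate 1, so that a change with the date and a departure of a single array cannot be told apart.

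Around these 10 genes, 5 lists of pathway genes were read in the same fits. Of 18 measured inhibitors and feedback proteins other than the members, none passed between the groups, over the dates or in the interaction (limma). The nearest between the groups was Nlrc5, a NOD-like receptor described as a brake on IκB kinase and as an activator of MHC class I genes. Nlrc5 measured 7.54, 7.61 and 7.69 in the arrays labelled 4T1-MMP3lo and 6.56, 6.69 and 6.95 in 4T1-SC, with no overlap, a difference of 0.88 (SE 0.18, adjusted p = 0.078, limma). It passed without 4T1-SC replicate 1 (adjusted p = 0.0273). Nfkbid, which encodes a further nuclear IκB, IκBNS, differed by 0.88 as well (SE 0.30, adjusted p = 0.282, limma), again with no overlap, and it too passed without 4T1-SC replicate 1 (adjusted p = 0.0329). Zc3h12a, which encodes the RNase regnase-1 that cuts cytokine transcripts, was the one with the largest date difference, 0.94 (SE 0.32, F-test adjusted p = 0.39, limma). It was 0.25 in the arrays labelled 4T1-MMP3lo and 1.62 in 4T1-SC, and passed without the array labelled 4T1-MMP3lo replicate 1 (adjusted p = 0.0435, limma). Without 4T1-SC replicate 1, 3 of the 18 passed between the groups, against 10.7% of all genes in that fit, the background of each such count below.

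Of 23 measured kinases and adaptors between the receptors and IκB, 1 fell between the groups, against 0.492% of all genes. It was Tab3, which encodes a binding partner of the kinase TAK1. Tab3 measured 7.37, 7.72 and 7.49 in the arrays labelled 4T1-MMP3lo and 8.68, 9.31 and 8.94 in 4T1-SC. The groups lay clearly apart, and the difference was −1.45 (SE 0.22, adjusted p = 0.0252, limma), or −1.31, −1.59 and −1.45 within the dates. With 5 arrays, the call was kept without 4T1-SC replicate 1 (adjusted p = 0.00209) and lost without any other array (adjusted p = 0.0715 to 0.168), the difference staying between −1.60 and −1.29. It was also lost with no background correction and in the authors' table (−1.12 and adjusted p = 0.0742 in both, limma), and with no filter on dim probes (adjusted p = 0.0713). Without 4T1-SC replicate 1, 3 of the 23 passed. Map3k7, the gene of TAK1 itself, differed by −0.40 (SE 0.35, adjusted p = 0.732, limma) between the groups and by −0.89 on the later dates against the first (SE 0.21, F-test adjusted p = 0.274). Irak2, an adaptor kinase of interleukin-1 and Toll-like receptors, was 0.79 higher on the later dates (SE 0.18, F-test adjusted p = 0.274, limma). No kinase or adaptor passed over the dates.

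Of 15 measured receptors and ligands upstream of NF-κB, 1 rose between the groups, against 0.599% of all genes. It was Tlr2, a receptor for bacterial lipoproteins. Tlr2 measured 8.98, 9.11 and 9.01 in the arrays labelled 4T1-MMP3lo and 7.94, 7.79 and 8.11 in 4T1-SC. Each group was tight, and the difference was 1.09, or 2.13-fold (SE 0.18, adjusted p = 0.0329, limma), with 1.04, 1.32 and 0.91 within the dates. The call was kept without 4T1-SC replicate 1 (adjusted p = 0.00759) and lost without any other array (adjusted p = 0.0724 to 0.223). It was also lost with no background correction and in the authors' table (0.87 and adjusted p = 0.0511 in both, limma). Without 4T1-SC replicate 1, 5 of the 15 passed. All 15 had later dates above the first by their estimates, as 4471 of all 9348 genes did, with a median of 0.35 against −0.02 over all genes, but none passed the F-test. Il1b and Tnf passed the detection filter only through the later dates, which fixed their direction. With no filter on dim probes the median of the list was 0.15. Il1a, which encodes the cell-associated interleukin-1α, was 1.22 higher on the later dates (SE 0.24, F-test adjusted p = 0.256, limma). Il1b, which encodes interleukin-1β, was not detected on either array of the first date and was detected on all 4 later arrays, at 5.03 and 5.10 in the later arrays labelled 4T1-MMP3lo and 7.53 and 7.45 in those of 4T1-SC. Within the groups it was at least 1.28-fold higher on the later dates in the arrays labelled 4T1-MMP3lo and at least 6.53-fold higher in 4T1-SC. Each bound sets the mean of the 2 later arrays against the lowest signal among detected probes on the group's single first array.

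Of the 24 measured inflammatory targets, none passed between the groups in limma's fit without the block. Without 4T1-SC replicate 1, 5 passed. With the date as a block 5 passed, against 2.08% of all genes: Saa3, Ptges and Lcn2 higher and Il23a and Mmp9 lower in the arrays labelled 4T1-MMP3lo. Over the dates 4 passed the F-test, all higher later, against 0.171% of all genes. The date test was planned after earlier results of these arrays had shown cytokine genes low on the first date. This list holds cytokine genes, so its count is not independent of those results. The median difference of the list was 0.89, against −0.02 over all genes, with 20 of 24 above 0, and the alternatives kept it between 0.61 and 1.11. These genes are known NF-κB targets by their list, but most also answer to other factors.

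Csf2, which encodes GM-CSF, a growth factor of granulocytes and macrophages, measured 4.62, 7.45 and 7.26 in the arrays labelled 4T1-MMP3lo and 4.83, 8.27 and 8.07 in 4T1-SC. Both arrays of the first date stood far below the other 4, and the difference was 3.04 (SE 0.21, F-test adjusted p = 0.0197, limma). Csf2 was detected on all 4 later arrays and on the first of 4T1-SC, but not on the first array labelled 4T1-MMP3lo. The 4.62 is thus a value below the detection threshold, and the 3.04 is not a measured fold. Csf3, which encodes G-CSF, a factor that 4T1 cells are known to secrete, measured 9.23, 12.39 and 12.14 in the arrays labelled 4T1-MMP3lo and 8.86, 11.09 and 11.33 in 4T1-SC. It was 2.69 higher on the later dates (SE 0.24, F-test adjusted p = 0.0316, limma). Mmp9, a gelatinase gene, measured 8.42, 10.50 and 10.66 in the arrays labelled 4T1-MMP3lo and 9.42, 11.76 and 11.96 in 4T1-SC, 2.30 higher on the later dates (SE 0.19, F-test adjusted p = 0.0255, limma). Within every date Mmp9 was lower in the array labelled 4T1-MMP3lo, the differences being −0.997, −1.25 and −1.31, and with the block this passed (adjusted p = 0.0294, limma), while without the block it did not (adjusted p = 0.613).

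The fourth gene was Lcn2, which encodes lipocalin-2, an iron-trapping protein of the acute phase that IκBζ is known to help induce. It was 2.19 higher on the later dates (SE 0.21, F-test adjusted p = 0.0344, limma). The date calls of all 4 were lost without the array labelled 4T1-MMP3lo replicate 3 and without 4T1-SC replicate 3. Those of Mmp9 and Lcn2 were also lost without 4T1-SC replicate 1, and that of Lcn2 without 4T1-SC replicate 2. On the intensities with no background correction none of the 4 passed, at adjusted p of 0.0644 to 0.145 (limma). Mmp3 moved along with them, 2.11 higher on the later dates (SE 0.30, F-test adjusted p = 0.142, limma).

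Saa3, which encodes an acute-phase serum amyloid A protein, had the largest difference between the groups in the list. It measured 6.46, 9.57 and 9.55 in the arrays labelled 4T1-MMP3lo and 5.05, 5.12 and 4.84 in 4T1-SC. The groups lay apart on every date, and the difference was 3.52 (SE 0.74, adjusted p = 0.0782, and 0.0389 with the block, limma). The 4T1-SC values (SD 0.14, n = 3) were detected on all 3 arrays but lay close to background. Their narrow range is therefore not read as a steady level. Ptges, which encodes the inducible prostaglandin E synthase, measured 7.42, 9.08 and 8.89 in the arrays labelled 4T1-MMP3lo and 5.84, 7.04 and 7.22 in 4T1-SC, a difference of 1.76 (SE 0.50, adjusted p = 0.177, and 0.0158 with the block, limma).

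**Figure D4:**
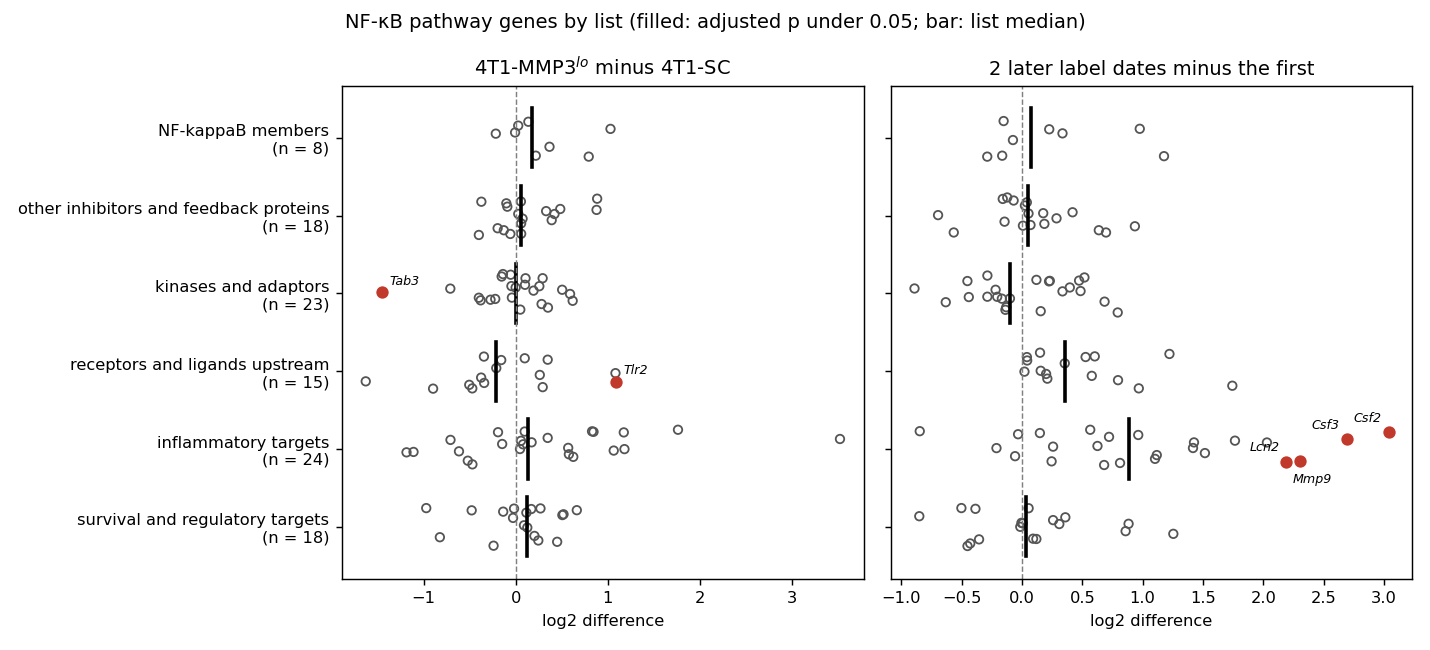
Log2 differences of the members and of 5 lists of pathway genes, 1 point a gene, left between the arrays labelled 4T1-MMP3lo and 4T1-SC, right between the 2 later dates and the first; bars are list medians and filled points passed at an adjusted p under 0.05. Tab3 and Tlr2 passed on the left, and Csf2, Csf3, Mmp9 and Lcn2 on the right, where the inflammatory targets have a median of 0.89.

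Of 18 measured survival and regulatory targets, none passed between the groups, over the dates or in the interaction (limma). Nuak2, a kinase gene induced by NF-κB, measured 9.52, 8.91 and 8.99 in the arrays labelled 4T1-MMP3lo and 10.15, 9.78 and 9.94 in 4T1-SC, with no overlap and a difference of −0.82 (SE 0.22, adjusted p = 0.151, limma). Junb, an AP-1 subunit gene, differed by −0.97 between the groups (SE 0.52, adjusted p = 0.519) and by 1.25 between the dates (SE 0.36, F-test adjusted p = 0.336, limma). The date difference of Junb was 0.46 in the arrays labelled 4T1-MMP3lo and 2.04 in 4T1-SC, and it passed without the array labelled 4T1-MMP3lo replicate 1 (adjusted p = 0.0267, limma). Fas, a death receptor gene, differed by 0.88 between the dates (SE 0.35, F-test adjusted p = 0.446, limma), at 0.07 in the arrays labelled 4T1-MMP3lo and 1.69 in 4T1-SC, and likewise passed without the array labelled 4T1-MMP3lo replicate 1 (adjusted p = 0.0334, limma). Junb, Fas and Nfkbiz had their lowest value on 4T1-SC replicate 1 and their highest on 4T1-SC replicate 2. Without 4T1-SC replicate 1, Junb differed by −1.65 between the groups and passed (adjusted p = 0.00274, limma), and 5 of the 18 targets passed.

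**Figure D5:**
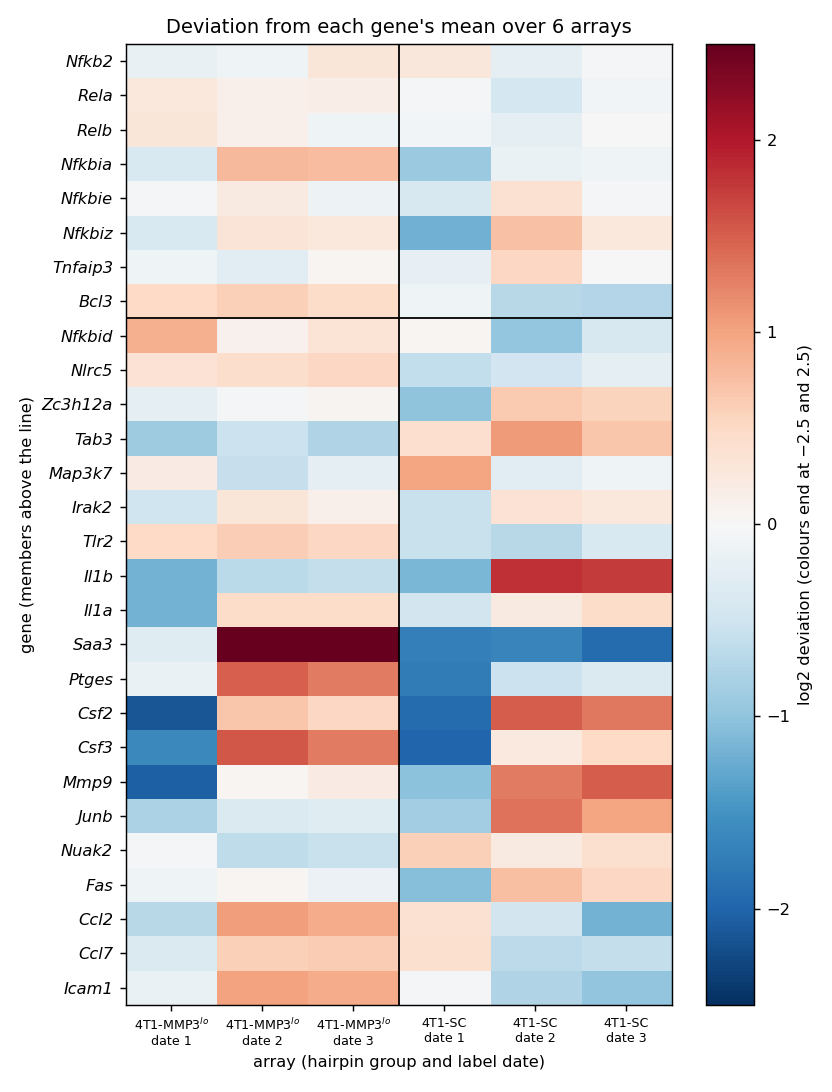
Log2 deviation of each gene from its own mean over 6 arrays, with the members above the line. Below it are the pathway genes named in the text other than Lcn2, Il23a and Tnf. Columns are arrays by group, 4T1-MMP3lo left, and by label date. Csf2, Csf3 and Mmp9 are low on both arrays of the first date, and Saa3 reaches 9.57 and 9.55 only on the later arrays labelled 4T1-MMP3lo.

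Among the members the closest likeness over the 6 arrays was between Nfkbie and Nfkbiz (Pearson r = 0.86), followed by Rela and Bcl3 (r = 0.84), and the furthest was between Nfkb2 and Nfkbie (r = −0.80). Nfkbia followed Nfkbiz at r = 0.68 and Tnfaip3 at r = −0.05. These are descriptions over 6 arrays that share groups, dates and a normalization. Among 4659 other genes with an SD over arrays of at least 0.3, the patterns most like that of Nfkbia were those of Hexa (r = 0.995), Havcr2, Upp1, Hsd11b1 and Gskip (r = 0.989). For Tnfaip3 they were Rab10 (r = 0.99), Smad1, Fbxo8, ATP6 and Pip4p1 (r = 0.971), and for Nfkb2 Ifna1 (r = 0.978), Mex3c, Gdf1, Asph and Eaf1 (r = 0.932). No test was made of them.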

How the data were processed

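Total RNA of 6 cultures of 4T1 cells was labelled with biotin and hybridised to Illumina MouseWG-6 bead arrays. The authors deposited a linear intensity for each of 45281 probes on each array and a detection p-value for each; the intensities show no sign of having been corrected for background or scaled across arrays. The authors also deposited a table of log2 values, which keeps the rank order of the same arrays' intensities (rank correlation 1) and lies within 0.00627 of their quantile normalization with no background correction; its column medians are 6.7471, 6.74674 and 6.74674 for 4T1-MMP3lo and 6.74786, 6.74674 and 6.74674 for 4T1-SC, and genes are not centred. The software behind either table is not given in the sources used here.

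Background-corrected, quantile-normalized log2 values were made from both with the neqc function (offset 16) of limma 3.58.1, run in R 4.3.3. The annotation pairs 34885 probes with a single symbol and 18 with several, and 10378 are unnamed here. Probes detected at a p under 0.05 on at least 3 of 6 arrays were kept (16969), and the brightest stood for each of 9348 genes. Groups, dates (F-test with the group in the model) and their interaction were tested with lmFit and eBayes on all 9348 genes with Benjamini-Hochberg adjustment; a gene is said to rise or fall where its adjusted p was under 0.05. The steps were tested on simulated data. Precision is limited by the number of arrays, 3 in each group; that the cultures were separate is stated, that the cell populations were separately made is not.

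Replicate numbers follow the label dates, 1 culture of each group on each. Across genes, the deviations from the group mean of 2 arrays with 1 number had correlations of 0.442, 0.212 and 0.283, each over 0.1, so the number was taken to pair the samples; the crossed pairs of replicates 2 and 3 gave 0.235 and 0.309. As in the study's methods the groups were compared without a block, which was tried as an alternative. The others were no background correction, the authors' table, an offset of 50, a median shift in place of quantile normalization, no filter or a filter on all 6 arrays, the mean of a gene's probes, array weights, the methods' t-test, the thresholds of the study's array legend (more than 2-fold, p under 0.01), the contrast of the first date with the later ones, the date model without the group, and each array left out. Promoter windows came from a RefSeq table of build GRCm38.p6 and were searched in Python 3.11.15; figures used matplotlib 3.10.9.

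The members, the lists and the tests were chosen with earlier results of these data known. Named in the text are all members, Mmp3, and from each pathway list and for the group and the date comparison up to 3 genes at an adjusted p under 0.05 with the largest change, or else the 2 with the largest change, and for Nfkbia, Nfkb2 and Tnfaip3 the 5 genes most like them. Lcn2, Il23a and the genes of the interaction were named after their values were seen.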

Additional observations from a re-analysis of the deposited data

Results flagged for a closer look

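For 5 of 98 pathway genes, against 0.877% of all genes, the difference between the arrays labelled 4T1-MMP3lo and 4T1-SC was not the same on the later dates as on the first, by limma's test of the interaction over all 9348 genes. In Saa3 it was 4.58 on the later dates and 1.41 on the first date, a change of 3.17 (SE 0.30, adjusted p = 0.019). In Il1b it was −2.42 on the later dates and −0.04 on the first date, where the gene was not detected, a change of −2.38 (SE 0.28, adjusted p = 0.0266). Il1b lay between 5.03 and 5.10 in the later arrays labelled 4T1-MMP3lo and between 7.45 and 7.53 in those of 4T1-SC. It passed the detection filter only through these later arrays. With both first-date values at background, the first-date difference of Il1b had to lie near 0. Its change therefore restates the later difference and cannot show that the groups were alike on the first date.

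Ccl7, a monocyte chemokine gene, gave 1.24 on the later dates and −0.75 on the first date, a change of 1.99 (SE 0.28, adjusted p = 0.0367, limma). Ccl2, which encodes another, gave 1.80 on the later dates and −1.07 on the first date, a change of 2.87 (SE 0.44, adjusted p = 0.0475, limma). Ccl7 was detected on 1 of 3 arrays of 4T1-SC and Ccl2 on 2 of 3, and both on all 3 arrays labelled 4T1-MMP3lo. On both arrays of the first date both genes were detected. The later 4T1-SC values of both genes therefore include values below the detection threshold. Icam1, a leukocyte adhesion gene, gave 1.83 on the later dates and −0.13 on the first date, a change of 1.96 (SE 0.30, adjusted p = 0.0475, limma).

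The call of Saa3 held without each array of the later dates in turn, and all 5 calls were lost with no filter on dim probes (adjusted p = 0.0572 to 0.13, limma). With no background correction and in the authors' table Saa3 passed (adjusted p = 0.0276, limma) and the other 4 did not (adjusted p = 0.0789 to 0.171). With an offset of 50, Ccl2, Ccl7 and Icam1 did not pass (adjusted p = 0.0547 to 0.105), and Icam1 did not where only probes detected on all 6 arrays were tested (adjusted p = 0.0559). The calls of the 4 genes other than Saa3 were also lost without the array labelled 4T1-MMP3lo replicate 2 (adjusted p = 0.0955 to 0.218) and without the array labelled 4T1-MMP3lo replicate 3 (adjusted p = 0.0689 to 0.163). The first date has a single array of each group, and the interaction rests on both. The 4T1-SC values of Saa3, 4.84 to 5.12, lay close to background on every date, where a change between the dates would be understated.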

How the results depend on the processing

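Between the groups 0 of the 8 members passed in the main fit. After a median shift 1 did (Bcl3, 1.11, adjusted p = 0.0448, limma), a setting for which the count over all genes is not given here. By the methods' t-test at more than 2-fold and p under 0.01, 1 passed, and 1 by the same thresholds on limma's fit. With array weights 2 passed (Bcl3 and Nfkbia), and 2 on the later dates only (added after seeing the data). Leaving out 1 array gave 0 to 1 members between the groups, 0 to 1 over the dates and 0 to 1 in the interaction, as named in the report. With the replicate block 0 members passed, and 194 genes in all against 102 without it; the block changed the calls of Saa3, Ptges, Lcn2, Il23a and Mmp9 given above. Over all genes the 102 became 12 with no background correction or from the authors' table, 38 with an offset of 50, 30 with no filter, 50 with the filter on all 6 arrays, 3103 with array weights, 253 by the legend's thresholds, 0 by the methods' t-test after adjustment, 1012 on the later dates only and 0 to 1000 with 1 array left out. The 16 genes over the dates became 45 with the contrast, 9 with a median shift, 0 with no background correction, no filter or no group in the model, and 0 to 266 with 1 array left out. The 82 genes of the interaction became 24 with no background correction, 53 with an offset of 50, 224 with a median shift, 0 with no filter, 52 with the filter on all 6 arrays, 215 with array weights and 22 to 1257 with 1 array left out.

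Small differences turned sign. Between the groups Nfkb2 gave 0.07 after a median shift, 0.21 with array weights, 0.23 on the later dates only and −0.16 to 0.14 with 1 array left out. Nfkbie gave −0.03 with array weights, −0.13 on the later dates only and −0.16 to 0.23 with 1 array left out, and Nfkbiz −0.02, −0.20 and −0.43 to 0.53. Between the dates Nfkb2 gave 0.0043 after a median shift and −0.43 to 0.28 with 1 array left out, Tnfaip3 −0.0093 to 0.46 and Bcl3 −0.60 to 0.02. The change of the difference was −0.14 for Rela after a median shift, −0.10 to 0.28 with 1 array left out, and −0.11 for Nfkbia with the mean of its probes. The cause was not tested. Signals near background limit Nfkb2, whose probe was detected on 3 of 6 arrays.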

Other observations

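Tnf, which encodes the founding ligand of the pathway, was not detected on the arrays of the first date and was detected on all 4 arrays of the later dates. It passed the detection filter only through those 4 arrays, which fixed its direction. Tnf was at least 1.10-fold higher there, as the mean of the later arrays over the lowest signal among detected probes on the first. Its later values, 4.75 to 5.00, lay close to background. The 16 measured interferon-stimulated genes, none of which is a member, had their lowest median on 4T1-SC replicate 1, the array on which Nfkbiz, Junb and Fas were lowest too. All 16 were higher on the later dates by their estimates over both groups, and the interaction passed for 8 of them, all towards a lower value in the arrays labelled 4T1-MMP3lo on the later dates (limma, adjusted p under 0.05, against 0.877% of all genes in either direction). The median deviation of the 16 was −0.33, −0.43 and −0.32 in the arrays labelled 4T1-MMP3lo and −1.14, 1.16 and 1.08 in 4T1-SC. By these medians the rise on the later dates lay in 4T1-SC. For epithelial markers the arrays labelled 4T1-MMP3lo had median deviations of −0.05, −0.44 and −0.46, against 0.10, 0.63 and 0.42 for 4T1-SC.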
